A study of Sus scrofa with 18 samples.

Results

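Mitochondrial ribosomal proteins were followed here in 2 pig muscles during 5 days of experimental critical illness. The members were all probe sets whose pig gene symbol or human homologue name in the deposited biceps femoris table begins with MRPL or MRPS. They numbered 101 of the 23999 probe sets tested, for 71 of 12505 named genes, of which 27 carry an MRPS name (39 probe sets) and 44 an MRPL name (62 probe sets). The pig symbol column named 1 of the 101, a probe set of MRPS11, and the human homologue column named the others. The current pig gene table lists 76 MRPL and MRPS symbols, and 69 of them are among the member genes.

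The mitochondrial ribosome translates the few messages of the mitochondrial genome, all of which encode subunits of the respiratory chain and of ATP synthase. Its proteins are encoded in the nucleus, made in the cytosol and imported, while its ribosomal RNAs come from mitochondrial DNA. Some of the proteins descend from those of the bacterial ribosome and others are found only in mitochondria. Muscle is rich in mitochondria, and several inherited defects of these proteins in humans affect heart or skeletal muscle. The names do not always give the place: MRPS30 and MRPS18A are now assigned to the large subunit, and MRPS36 is now regarded in mammals as a component of the 2-oxoglutarate dehydrogenase complex of the citric acid cycle.

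Muscle came from 5 female domestic piglets that were anaesthetised, mechanically ventilated and immobile for 5 days. Pancuronium, which blocks neuromuscular transmission, was given at 0.1 mg/kg/h, together with the corticosteroid betamethasone in doses of 0.1 mg/kg and Escherichia coli endotoxin at 36 µg/kg/h for 1 h. The groups were masseter at day 5 (n = 5) and at day 1 (n = 5), and biceps femoris at day 5 (n = 4) and at day 1 (n = 4). Masseter arrays of the same replicate number came from 1 animal. The series text takes the biceps femoris arrays from the same animals without naming which, and no array came from an animal without this treatment, so treatment and the 4 further days cannot be told apart. All groups share the ventilation and anaesthesia of the model. The day 1 samples are titled controls, and what they had received by then is not clear from the labels, since a treatment tag calls those of masseter untreated and those of biceps femoris treated. The labels also disagree on breed, with wild boar in a tag and domestic piglets in the protocols.

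Levels are log2 values of RMA, a method that corrects background, normalizes arrays and summarises the probes of a set. The muscles may have been normalized apart, so only changes from day 1 to day 5 were compared between them. Changes are day 5 minus day 1 in log2 units. A gene was called where limma's adjusted p was under 0.05 over all 23999 probe sets, and each gene was represented by its member probe set of highest mean. Errors of levels are SD and errors of changes are SE.

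The arrays carried a clear muscle signature. The mean of 6 fibre genes was 13.70 to 14.23 at day 5 and 14.19 to 14.28 at day 1 in masseter. In biceps femoris it was 13.32 to 13.57 at day 5, below the 13.81 to 13.92 of day 1. The fibre genes did not fall together there: 3 had a change above 0 and 3 below. Their median change was -0.01 and the lowest, of 1 gene, was -2.56. The highest value on any array was 15.22. Of the 6 fibre genes 1 was higher and 1 lower in masseter, and 1 was lower in biceps femoris. Of 8 fibroblast markers, 7 were lower at day 5 in biceps femoris and 1 in masseter. Their mean ranged from 8.78 to 9.92 at day 5 and from 10.69 to 11.36 at day 1 in biceps femoris, and from 8.87 to 10.64 at day 5 and from 10.08 to 11.06 at day 1 in masseter. Of 6 endothelial markers 1 was higher in masseter and 2 were lower in biceps femoris. None of 9 leukocyte, 2 adipocyte, 3 erythroid or 3 satellite cell markers was called in either muscle. Beside these counts, 8.22% of all named genes were lower and 9.24% higher in masseter, and 9.1% lower and 13% higher in biceps femoris. A probe for 28S ribosomal RNA read 12.69 ± 0.44 at day 5 and 11.85 ± 0.20 at day 1 in biceps femoris, and 9.99 ± 0.35 and 10.10 ± 0.15 in masseter. The BioC spike-in, a bacterial transcript added before hybridisation, read between 7.43 and 7.78 on the biceps femoris day 5 arrays, and 8.87, 8.94, 9.13 and 7.97 on the day 1 arrays. The part of these measures in the results below was not tested. In whole muscle, fewer cells of a type and less RNA per cell cannot be told apart.

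Averaged over the 71 genes, the ribosomal proteins of masseter stood at 8.59, 9.08, 9.09, 9.01 and 9.17 on the day 5 arrays, against 9.39, 9.12, 9.04, 9.23 and 9.27 on the day 1 arrays. Day 5 replicate 1 lay below all other masseter arrays, and the other day 5 arrays overlapped the day 1 range. In biceps femoris the mean was 8.88, 9.08, 9.07 and 8.93 at day 5, against 8.92, 8.83, 9.09 and 8.96 at day 1, and the groups overlapped. The low masseter array was low in both subunits, at 8.44 for MRPS genes and 8.67 for MRPL genes, while its 3′ to 5′ difference for actin, a measure of RNA integrity, was 2.49 within a day 5 range of 2.38 to 2.71. Its mean over cytosolic ribosomal protein genes was 13.63, also within the day 5 range of 13.60 to 13.69. On other measures it lay at the edge of its group, with the lowest day 5 mean of oxidative phosphorylation subunits (11.22, others up to 11.52) and the highest day 5 values for leukocyte markers (6.72), endothelial markers (9.46), fibre genes (14.23) and 28S ribosomal RNA (10.31).

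**Figure D1:**
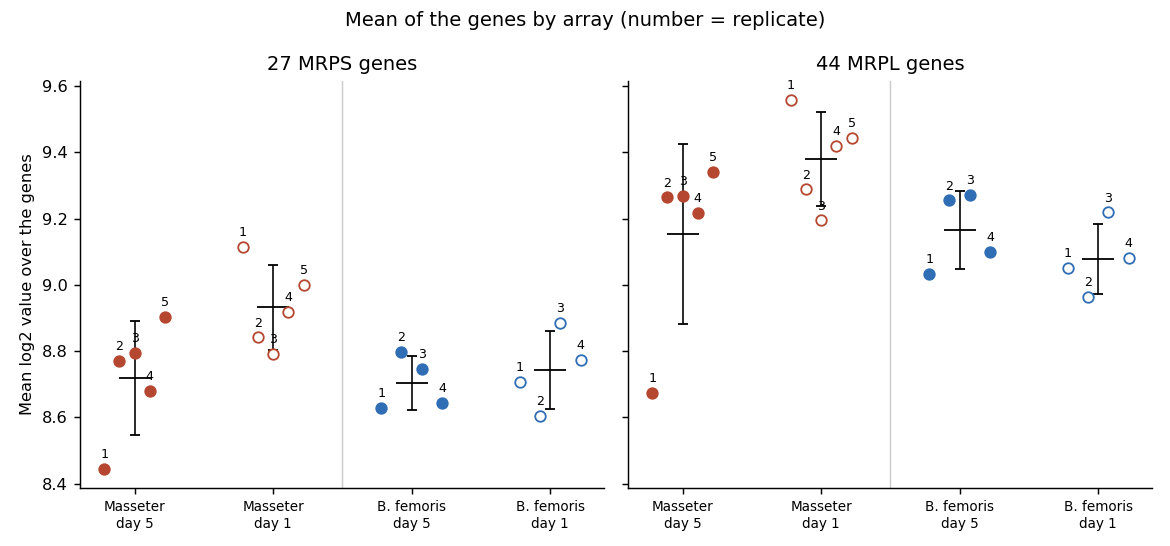
Mean log2 value of 27 MRPS genes (left) and 44 MRPL genes (right) on each of 18 arrays, with group mean and SD as bars and the replicate number above each point. Masseter day 5 replicate 1 stands apart at 8.44 and 8.67, and levels of masseter (red) and biceps femoris (blue) may not be on 1 scale.

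In masseter, 11 of the 71 genes fell by day 5 and 2 rose. The largest falls were those of MRPS36, MRPL30, MRPS15 and MRPL21, and the genes that rose were MRPS5 and MRPL14. Over all named genes 8.22% were lower and 9.24% higher by the same call. The median change of the 71 genes was -0.19, beside -0.02 over all named genes, and 52 of them had a change below 0. Counted by probe set, 13 of 101 fell and 2 rose, where 6.51% and 7.31% of all probe sets did. With the animal as a block, which the pairing of these arrays allows, 6 genes fell and 2 rose (6.05% and 6.69% of named genes), and all 8 were among the 13. The arrays of both days did not overlap for 9 lower genes and 1 higher, where 7.04% and 7.15% of named genes were so placed. Without day 5 replicate 1, 10 genes fell and 7 rose (10.8% and 13.6% of named genes), and the median change was -0.12. With any 1 of day 1 replicates 1, 4 and 5 left out 6 genes fell. With day 1 replicate 2 or day 5 replicate 4 or 5 left out 7 fell. Over all probe sets 998 to 1370 were lower in those fits, beside 1563 with all arrays. The count of higher genes was 1 without day 1 replicate 1, 2 or 3 or without day 5 replicate 2, 3, 4 or 5. Over all probe sets 1185 to 1606 were higher in these fits, beside 1755.

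In biceps femoris, 14 of the 71 genes rose and 10 fell. MRPL17, MRPL14, MRPL52 and MRPS5 rose most, and MRPS36, MRPL21, MRPS15 and MRPS28 fell most. Over all named genes 13% were higher and 9.1% lower. The median change was 0.06, beside -0.01 over all named genes, with 39 genes above 0 and 32 below. A further quantile normalization across the arrays gave 12 higher and 13 lower genes and a median of -0.02. Over all probe sets that fit had 2214 higher and 1777 lower, beside 2373 and 1744 without it. The median over all probe sets was 0.004, beside -0.02. By probe set 19 of 101 rose and 13 fell, against 9.89% and 7.27% of all probe sets. Groups did not overlap for 16 higher genes and 14 lower, against 15.2% and 11.9% of named genes. The authors' deposited table, thresholded at the same adjusted p, also gives 19 higher and 13 lower. When the arrays were blocked by the gap in BioC level, which sets day 1 replicate 4 and the day 5 arrays apart from the other day 1 arrays, 2 genes rose and 4 fell (4.37% and 2.73% of named genes), and 5 of the 24 calls held with no sign turned. That fit leaves day 1 replicate 4 as the only array to set beside the day 5 arrays, so a lost call need not mean a smaller change. Among lost calls, MRPS36 changed by -1.44 in it, MRPL14 by 1.10 and MRPS15 by -0.93, beside -1.51, 1.05 and -0.72. Others had smaller changes in it: MRPL52 0.54, MRPS12 -0.35 and MRPL39 -0.45, beside 0.92, -0.54 and -0.63.

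**Figure D2:**
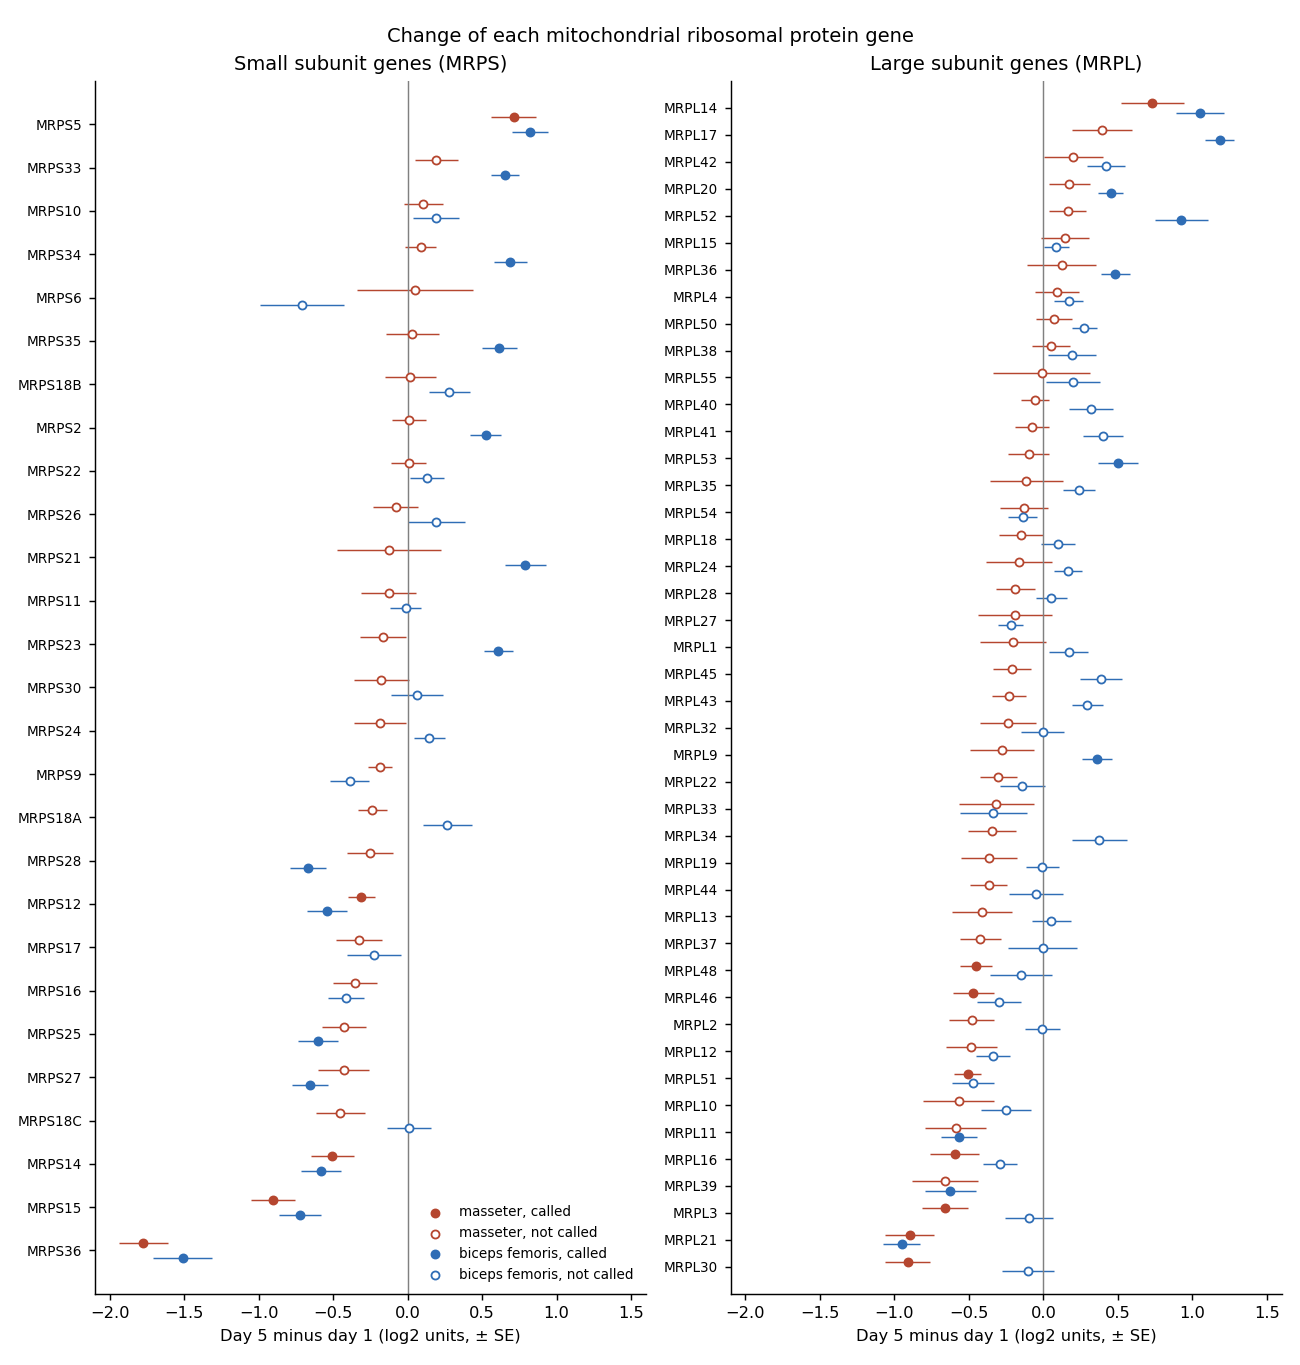
Change from day 1 to day 5 in log2 units (horizontal axis, point and SE) of each of 71 genes in masseter (red) and biceps femoris (blue), with filled points for adjusted p under 0.05. In masseter 11 genes fell and 2 rose, in biceps femoris 10 fell and 14 rose.

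MRPS36, the oxoglutarate dehydrogenase component, changed most in both muscles. Its levels in masseter were 6.99, 7.20, 7.30, 6.52 and 6.57 at day 5, against 8.85, 8.42, 8.69, 8.64 and 8.85 at day 1. The groups lay more than 1 log2 unit apart at their nearest arrays. The change was -1.77 ± 0.16, a 3.42-fold fall (adjusted p = 0.00026, limma). In biceps femoris it read 6.16, 6.81, 6.32 and 6.52 at day 5, against 7.72, 7.77, 8.47 and 7.89 at day 1. It fell 2.85-fold there (change -1.51 ± 0.20, adjusted p = 0.00155, limma), again with no overlap, and its adjusted p with the spike-in block was 0.0548. A second probe set of the gene, with levels near 5, changed by -0.31 and -0.10 and was not called in either muscle.

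Among small subunit proteins with a bacterial counterpart, MRPS15 fell in both muscles. In masseter it read 9.69, 10.14, 9.89, 9.76 and 10.06 at day 5, against 11.22, 10.46, 10.61, 10.85 and 10.91 at day 1, without overlap (change -0.90 ± 0.15, adjusted p = 0.0038, limma). In biceps femoris the 4 day 5 arrays lay between 9.72 and 9.79 and the day 1 arrays between 10.07 and 10.71 (change -0.72 ± 0.14, adjusted p = 0.00999, limma). MRPS15 is the counterpart of bacterial S15, one of the proteins that bind the small ribosomal RNA early. MRPS14 fell by 0.51 in masseter and by 0.58 in biceps femoris. Its masseter groups touched, at 9.11 for the highest day 5 array and 9.10 for the lowest day 1 array, and its adjusted p of 0.0413 became 0.0728 with the animal as a block. MRPS12, the counterpart of the S12 protein of the decoding centre, fell by 0.31 in masseter (adjusted p = 0.0451, limma, and 0.0709 with the animal block) and by 0.54 in biceps femoris (adjusted p = 0.0248, limma). A second MRPS12 probe set fell by 0.60 and 1.05, and the dimmest of its 3 fell by 1.19 in biceps femoris and had a change of -0.76 in masseter that was not called.

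MRPS5, the counterpart of a bacterial protein near the entry of the message, rose in both muscles. It read 7.59, 8.08, 8.37, 7.69 and 8.08 in masseter at day 5, against 7.08, 7.29, 7.51, 7.23 and 7.15 at day 1. The lowest day 5 array stood above the highest day 1 array. The change was 0.71 ± 0.15, a 1.64-fold rise (adjusted p = 0.0125, limma). In biceps femoris it read 8.59, 8.98, 9.01 and 8.67 at day 5, against 7.83, 8.04, 8.05 and 8.05 at day 1 (change 0.82 ± 0.12, 1.77-fold, adjusted p = 0.00257, limma).

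MRPS2 and MRPS21, both of bacterial descent, rose in biceps femoris without a call in masseter. MRPS21 read 10.68, 10.96, 10.70 and 10.80 in biceps femoris at day 5, against 9.80, 9.97, 10.37 and 9.85 at day 1 (change 0.79 ± 0.14, adjusted p = 0.0057, limma). In masseter it stood at 8.94 on day 5 replicate 1 and at 10.76, 11.02, 10.92 and 10.97 on the others, against 10.59 to 10.72 at day 1. That single array set the direction: the masseter change was -0.12 ± 0.35 with it, and 0.27 without it (adjusted p = 0.0381, limma). MRPS2 rose by 0.52 in biceps femoris (adjusted p = 0.00999, limma), and its second probe set rose by 0.60. MRPS28 fell in biceps femoris, with day 5 arrays between 8.18 and 8.49 and day 1 arrays between 8.77 and 9.22 (change -0.67 ± 0.12, adjusted p = 0.00648, limma). In masseter its change was -0.25 (adjusted p = 0.302).

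The MRPS proteins found only in mitochondria held calls in both directions in biceps femoris. Of 10 such MRPS genes 4 rose (MRPS33, MRPS34, MRPS23 and MRPS35) and 3 fell (MRPS36, MRPS27 and MRPS25), while in masseter MRPS36 was the only one called. Over all named genes 13% rose and 9.1% fell in biceps femoris. MRPS34, whose loss in mice lowers the small mitochondrial ribosomal RNA, read 9.14, 9.20, 9.08 and 8.78 in biceps femoris at day 5, against 8.39, 8.23, 8.35 and 8.45 at day 1. All 4 day 5 arrays lay above day 1 (change 0.69 ± 0.11, adjusted p = 0.00386, limma). In masseter its day 5 arrays read 8.25, 8.26, 8.28, 8.22 and 8.54, within 0.1 of the day 1 range of 8.02 to 8.45, for a change of 0.09 ± 0.11. MRPS33 rose by 0.65 in biceps femoris on both of its probe sets (adjusted p = 0.00225 and 0.0128, limma). MRPS23 rose by 0.61 and by 0.55 on its pair of probe sets, which had low levels near 6 and 5. MRPS35 read 9.18, 9.42, 9.45 and 9.10 at day 5, against 8.71, 8.46, 8.82 and 8.69 at day 1, and rose by 0.61 ± 0.12 (adjusted p = 0.0086, limma). MRPS27, a pentatricopeptide repeat protein, fell by 0.65 (adjusted p = 0.00739) and MRPS25 by 0.60 (adjusted p = 0.0167, limma). A second, dimmer MRPS25 probe set changed by 0.11 in biceps femoris and by 0.21 in masseter without a call.

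Of the other MRPS genes picked for their roles, none was called. MRPS18A, MRPS18B and MRPS18C are relatives of bacterial S18 that occupy different sites, and their changes in biceps femoris were 0.27, 0.28 and 0.01. In masseter they were -0.24, 0.02 and -0.45. The last of these was called without day 5 replicate 1 (change -0.28, adjusted p = 0.0442). MRPS30 changed by -0.18 in masseter and 0.06 in biceps femoris. The MRPS22 probe set read between 3.96 and 4.81 on all 18 arrays, among the lowest 25% of probe sets in masseter, and its changes were 0.01 and 0.13.

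Of 44 MRPL genes 7 fell and 1 rose in masseter, where 8.22% and 9.24% of named genes did. Without day 5 replicate 1, 5 fell and 4 rose, where 10.8% and 13.6% of named genes did. The calls of MRPL16 and MRPL46 were lost there at changes of -0.52 and -0.44, beside -0.60 and -0.47 with all arrays. In biceps femoris 7 rose and 3 fell, shares near the 13% and 9.1% of named genes. MRPL21 fell in both muscles. It read 7.97, 8.67, 8.59, 8.46 and 8.15 in masseter at day 5, against 9.65, 8.97, 9.23, 9.38 and 9.08 at day 1 (change -0.90 ± 0.16, adjusted p = 0.00643, limma). In biceps femoris it read 7.69, 8.02, 7.73 and 7.53 at day 5, against 8.64, 8.52, 8.87 and 8.74 at day 1 (change -0.95 ± 0.12, adjusted p = 0.00148, limma). The groups did not overlap in either muscle, and all 17 alternative settings of each comparison kept the call. In biceps femoris 1 of the 17 was a refit of the authors' table, whose values are the same, so it could not lose a call.

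MRPL30 fell in masseter, with day 5 arrays at 10.19, 10.19, 10.15, 10.01 and 9.44, against 11.17, 10.89, 10.66, 10.88 and 10.93 at day 1 (change -0.91 ± 0.15, 1.88-fold, adjusted p = 0.00434, limma). In biceps femoris its groups overlapped, at 9.71 to 10.43 on day 5 and 10.11 to 10.51 on day 1, with a change of -0.10 ± 0.17. MRPL51, a protein found only in mitochondria, fell in masseter by 0.51 ± 0.09 (adjusted p = 0.00582, limma), and its change of -0.47 in biceps femoris had an adjusted p of 0.0527. MRPL3, the counterpart of a bacterial protein that reaches toward the peptidyl transferase centre, fell by 0.66 ± 0.15 in masseter (adjusted p = 0.018, limma) and had a change of -0.10 in biceps femoris. MRPL16, MRPL46 and MRPL48 fell by 0.60, 0.47 and 0.45 in masseter, and blocking on the animal left none of these 3 called (adjusted p = 0.0984, 0.056 and 0.0613, limma).

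MRPL14 rose in both muscles. This protein lies at the face of the large subunit that meets the small one, where the assembly factor MALSU1 binds it. It read 9.71, 10.01, 10.11, 10.16 and 10.61 in masseter at day 5, against 9.23, 8.99, 9.08, 9.86 and 9.79 at day 1. The groups overlapped through day 1 replicates 4 and 5 (change 0.73 ± 0.21, adjusted p = 0.0423, limma, and 0.0244 with the animal block), and 8 of 17 alternative settings lost the call. In biceps femoris it read 9.91, 10.09, 10.21 and 10.14 at day 5, against 8.83, 8.81, 9.51 and 8.99 at day 1, and it rose 2.07-fold (adjusted p = 0.00327, limma). MALSU1 itself, under its older name C7orf30, fell in masseter to 10.02 ± 0.23 at day 5, against 10.90 ± 0.15 at day 1 (change -0.88, adjusted p = 0.00178, limma). In biceps femoris its change was -0.21 (adjusted p = 0.176).

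MRPL17 had the largest rise in biceps femoris. It read 10.94, 10.93, 11.08 and 10.75 at day 5, against 9.77, 9.66, 9.67 and 9.86 at day 1, which is a 2.27-fold rise with groups well apart (change 1.18 ± 0.10, adjusted p = 0.000257, limma). In masseter it read 9.83, 10.53, 10.60, 11.09 and 10.98 at day 5, against 10.29, 10.18, 10.06, 10.35 and 10.17 at day 1. Its lowest masseter value was again replicate 1 of day 5, and the change of 0.39 (adjusted p = 0.232) was 0.59 without it (adjusted p = 0.0122, limma).

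MRPL52 and MRPL20 also rose in biceps femoris. MRPL52 read 9.59, 9.80, 9.85 and 9.78 at day 5, against 8.58, 8.44, 9.08 and 9.21 at day 1 (change 0.92 ± 0.18, adjusted p = 0.00875, limma). A dimmer probe set rose by 0.53 and the dimmest of its 3, at levels near 4, changed by 0.20 without a call. MRPL20, the counterpart of a bacterial early assembly protein, rose by 0.45 ± 0.08 (adjusted p = 0.00709, limma). A second MRPL20 probe set, at levels near 4, changed by -0.21 without a call. The remaining calls, which the naming rule did not pick, were rises of MRPL53 (0.50), MRPL36 (0.48) and MRPL9 (0.36). MRPL39 fell by 0.63 (adjusted p = 0.038, limma). MRPL11, of the stalk base where translation factors dock, read 8.48, 8.19, 8.14 and 8.11 at day 5, against 8.71, 8.59, 8.98 and 8.89 at day 1, and fell by 0.56 ± 0.12 (adjusted p = 0.0144, limma). Its masseter change of -0.59 was as large but had an SE of 0.20 and an adjusted p of 0.0833.

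The other stalk proteins were below 0 in both muscles without a call. MRPL12, which also binds the mitochondrial RNA polymerase, changed by -0.48 in masseter and -0.34 in biceps femoris (adjusted p = 0.0893 and 0.087, limma). MRPL10 changed by -0.57 and -0.25. MRPL44, a ribonuclease-like protein whose defects cause cardiomyopathy in humans, changed by -0.37 and -0.05. MRPL45, which ties the ribosome to the inner membrane, changed by -0.21 in masseter and 0.39 in biceps femoris. MRPL37 and MRPL41 were not called in either muscle.

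**Figure D3:**
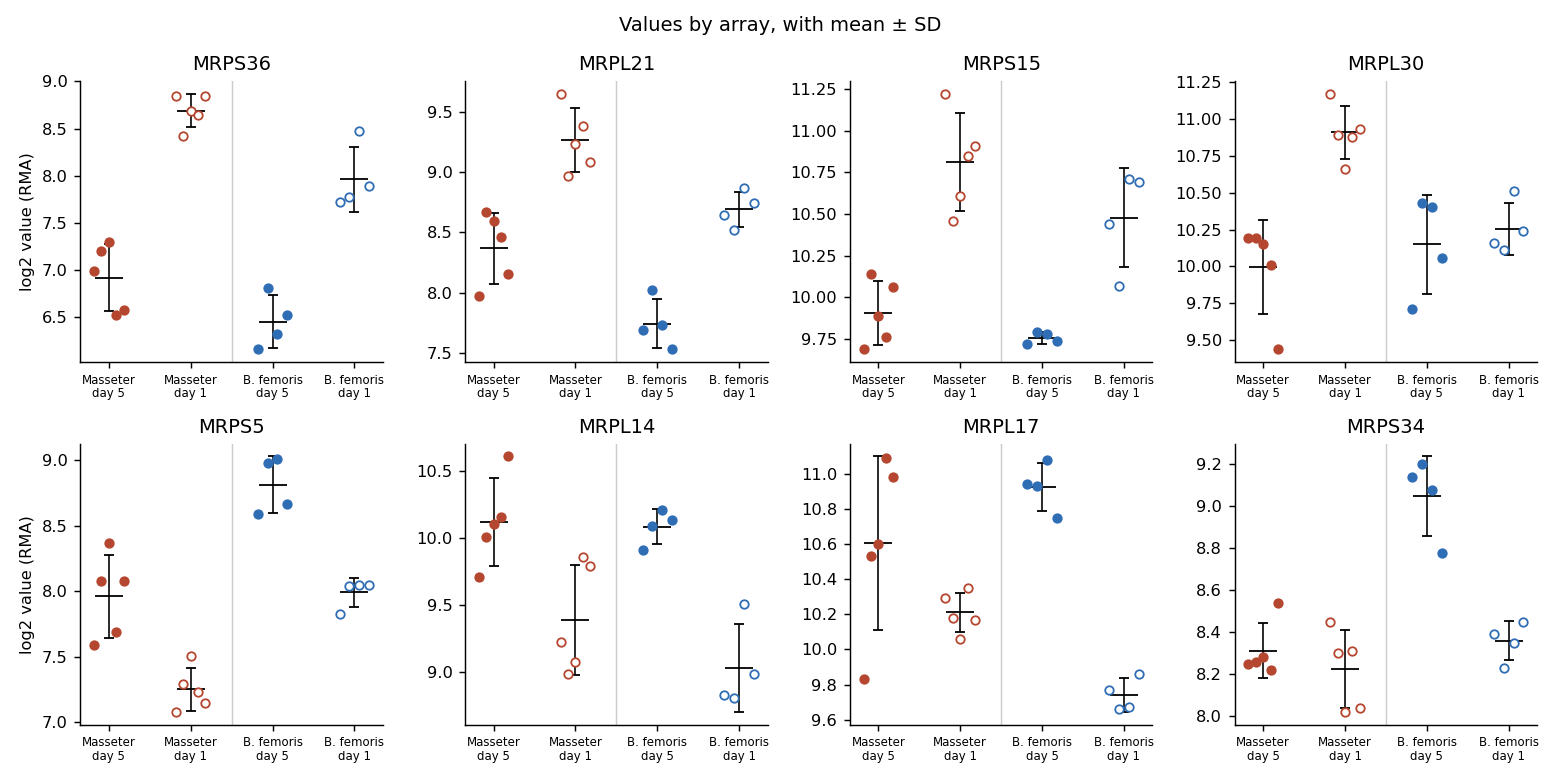
Log2 value of 8 genes on each array (points), with mean and SD as bars, at day 5 (filled) and day 1 (open) in masseter (red) and biceps femoris (blue). MRPS36, MRPL21 and MRPS15 sit lower at day 5 in both muscles, MRPS5 and MRPL14 higher, MRPL30 lower in masseter, and MRPL17 and MRPS34 higher in biceps femoris.

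Genes of bacterial descent and mitochondria-specific genes were counted apart. Of 45 genes with a bacterial counterpart 7 fell and 2 rose in masseter, and 6 fell and 8 rose in biceps femoris. Named genes as a whole had 8.22% lower and 9.24% higher in masseter, and 9.1% lower and 13% higher in biceps femoris. Of 26 mitochondria-specific genes 4 fell and none rose in masseter, and 4 fell and 6 rose in biceps femoris. The median changes were -0.24 and -0.15 in masseter and 0.01 and 0.19 in biceps femoris. No test of the difference between these classes was made.

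Probe sets of 1 gene did not always move together. Of 24 genes with more than 1 member probe set, 8 had changes of both signs in masseter and 8 in biceps femoris, and none was called in both directions. MRPS9 and MRPS16 are given here because of this spread, seen in their values. The MRPS9 probe set of highest level changed by -0.18 and -0.39 and was not called, while a second fell by 0.88 in masseter, to 7.92 to 8.25 at day 5 against 8.90 to 9.30 at day 1, and by 1.09 in biceps femoris (adjusted p = 0.000839 and 0.000291, limma). The remaining MRPS9 probe set changed by 0.18 and 0.17. For MRPS16 the brightest probe set had a change of -0.41 in biceps femoris (adjusted p = 0.0528), and a dimmer one, which read 6.37 to 6.87 at day 5 against 5.63 to 5.98 at day 1, rose by 0.86 (adjusted p = 0.00319, limma). Which transcripts or probes these sets follow is not given in the sources used here.

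Masseter and biceps femoris called 7 genes in common, out of 13 calls in masseter and 24 in biceps femoris. These were 5 lower (MRPS36, MRPL21, MRPS15, MRPS14 and MRPS12) and 2 higher (MRPS5 and MRPL14). With the animal as a block MRPS14 and MRPS12 lost their masseter call (adjusted p = 0.0728 and 0.0709, limma), and the others kept it. Of all named genes 4.1% were called lower and 4.97% higher in both muscles, beside the 5 and 2 of 71. No member gene was called in opposite directions, and 1 of the 12505 named genes was. In masseter alone 6 genes were called lower, in biceps femoris alone 5 lower and 12 higher, and 41 were called in neither.

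The difference between the muscles was tested directly as the masseter change minus the biceps femoris change. No member gene passed, where 0.264% of all named genes did, and 18 of the 71 had an unadjusted p under 0.05, where 14.4% of named genes did. The difference was below 0 in 58 genes, with a median of -0.27 beside -0.02 over all named genes. Without masseter day 5 replicate 1 it was below 0 in 52 genes, with a median of -0.15 and again no call (17 genes at an unadjusted p under 0.05, and 15.7% of named genes). When limma weighted the arrays by their quality, 6 genes passed, all with a difference below 0: MRPL30, MRPL43, MRPL45, MRPL52, MRPS2 and MRPS23. Calls rose throughout in that fit, to 2.02% of named genes below 0 and to 527 probe sets in all, beside 48.

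The smallest p in the difference belonged to MRPS34, at -0.60 (95% interval -0.93 to -0.28, adjusted p = 0.118, limma). MRPS23 followed at -0.77 (interval -1.19 to -0.35), MRPL52 at -0.76 (-1.22 to -0.30) and MRPL30 at -0.81 (-1.31 to -0.30). MRPL43 stood at -0.53, MRPS2 at -0.51, MRPL17 at -0.79 and MRPL45 at -0.60, with adjusted p between 0.174 and 0.212 (limma). For MRPL30 the masseter change was the one called, and for MRPS34, MRPL52 and MRPL17 the biceps femoris change. For the genes that moved together the intervals held 0: MRPL21 differed by 0.05 (-0.41 to 0.52), MRPS36 by -0.27 (-0.83 to 0.30) and MRPS5 by -0.11 (-0.55 to 0.32).

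**Figure D4:**
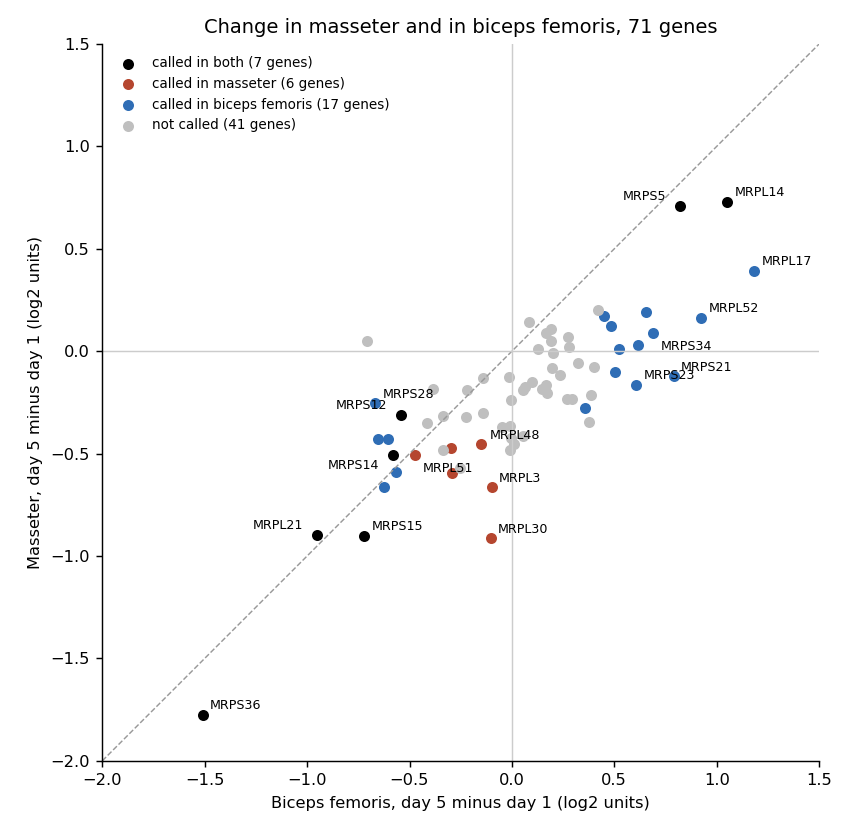
Change in masseter (vertical axis) against change in biceps femoris (horizontal axis) of 71 genes, in log2 units, with the line of equal change dashed. Most points lie below the line. The 7 genes called in both muscles, without an animal block, are black, 5 of them below 0 and 2 above 0 on both axes.

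The mitochondrial ribosomal proteins were set beside the cytosolic ones and beside the respiratory subunits. Of 76 cytosolic ribosomal protein genes 39 rose and none fell in masseter, and 64 rose and none fell in biceps femoris, with median changes of 0.25 and 0.46. Of 70 subunits of oxidative phosphorylation none rose, and 55 fell in masseter and 52 in biceps femoris, with medians of -0.69 and -0.84. By the same call 8.22% of all named genes were lower and 9.24% higher in masseter. The shares in biceps femoris were 9.1% lower and 13% higher. The medians of the mitochondrial ribosomal proteins, -0.19 and 0.06, lay between those of both lists in each muscle. RPL5 rose to 13.65 ± 0.07 at day 5, against 13.26 ± 0.07 at day 1 in masseter, and NDUFS1 of complex I fell to 10.47 ± 0.16, against 11.96 ± 0.26. The smallest change among cytosolic ribosomal protein genes was 0.07 in masseter and 0.13 in biceps femoris, whereas the mitochondrial ones ran from -1.77 to 0.73 and from -1.51 to 1.18. Both low ends are MRPS36, and without it the lowest changes were -0.91 (MRPL30) and -0.95 (MRPL21).

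**Figure D5:**
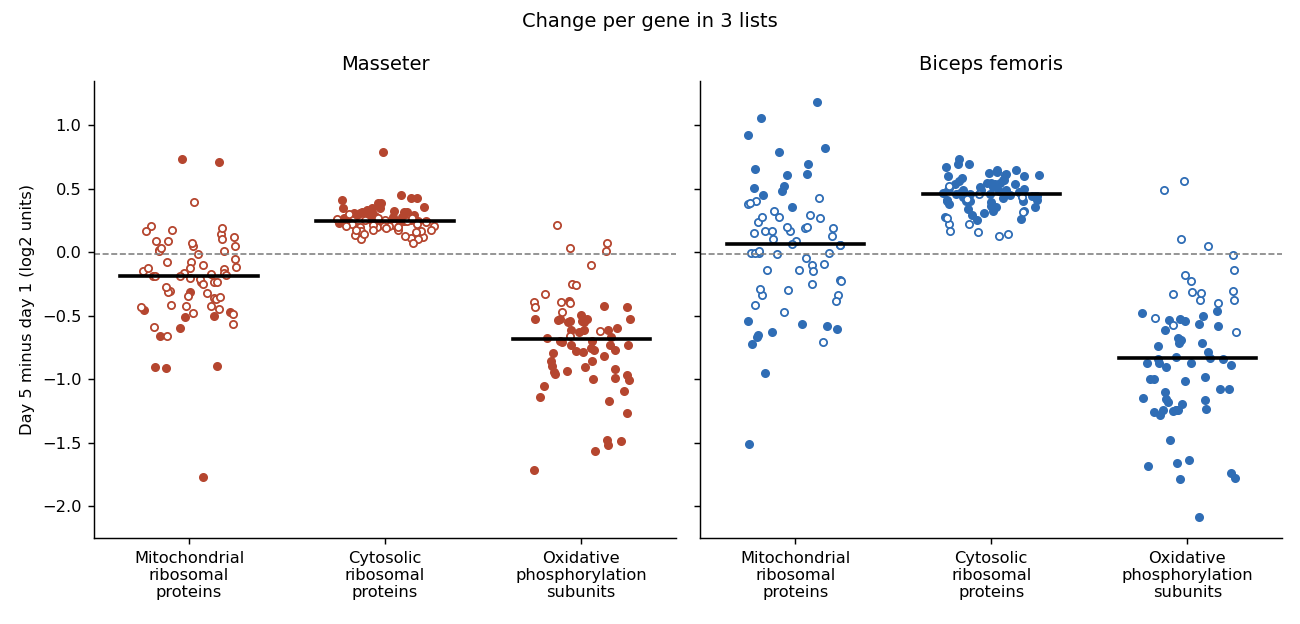
Change from day 1 to day 5 in log2 units of each gene of 3 lists in masseter (left) and biceps femoris (right), with filled points for adjusted p under 0.05, the median of each list as a bar and the median of all named genes dashed. The 71 mitochondrial ribosomal protein genes spread to both sides of 0, the 76 cytosolic ones lie above it and most of the 70 respiratory subunits below it.

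Other genes of mitochondrial translation were counted in short lists. For these and the lists below, the shares over all named genes were 8.22% lower and 9.24% higher in masseter. In biceps femoris they were 9.1% lower and 13% higher. Of 8 translation factors 2 fell in masseter. TUFM, the elongation factor that brings aminoacyl-tRNA, fell to 9.88 ± 0.32 at day 5, against 10.65 ± 0.31 at day 1 (change -0.78, adjusted p = 0.0192, limma). MTIF2, the initiation factor, fell by 0.55 in masseter and by 0.36 in biceps femoris (adjusted p = 0.0222 and 0.039, limma). TSFM, the exchange factor of TUFM, rose by 0.48 in biceps femoris (adjusted p = 0.0165, limma). The release factor MTRF1L had changes of 0.56 and 0.49 that were not called.

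Of 7 genes for assembly and ribosomal RNA modification 1 was called. MTERF3, which binds mitochondrial DNA and acts in assembly of the large subunit, rose in biceps femoris to 9.72 ± 0.09 at day 5, against 8.72 ± 0.14 at day 1 (change 1.00, adjusted p = 0.000451, limma). Its masseter change was 0.27 (adjusted p = 0.42). ERAL1, MTG1 and GTPBP5 had changes of -0.37, -0.44 and -0.44 in masseter that were not called. A list of 7 genes was drawn up for ribosome-associated proteins under other names: DAP3, CHCHD1, GADD45GIP1, MRPL58, MRP63, C7orf30 and LACTB. Whether LACTB belongs with the ribosome was not checked. C7orf30, in masseter, was the one called. DAP3, a small subunit protein that binds GTP, changed by -0.38 in masseter and 0.05 in biceps femoris.

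Of 8 genes for mitochondrial aminoacyl-tRNA synthesis 1 rose in masseter, and 2 rose and 1 fell in biceps femoris. KARS, which serves both cytosol and mitochondria, rose by 0.34 and 0.39 (adjusted p = 0.0173 and 0.0263, limma). HARS2 rose by 0.62 and QRSL1, of the enzyme that completes glutaminyl-tRNA, fell by 0.85 in biceps femoris (adjusted p = 0.00658 and 0.00695, limma). Of 14 genes for mitochondrial DNA and its transcription 1 rose and 2 fell in masseter, and 3 rose and 1 fell in biceps femoris. PPARGC1B, a coactivator of nuclear genes for mitochondria, fell in both, to 5.43 ± 0.56 at day 5 against 8.36 ± 0.22 at day 1 in masseter and to 4.46 ± 0.66 against 8.18 ± 0.32 in biceps femoris. POLG, the mitochondrial DNA polymerase, fell by 0.42 in masseter (adjusted p = 0.00841, limma), and GABPA, a transcription factor for many nuclear genes of mitochondrial proteins, rose by 0.49 (adjusted p = 0.0242, limma). ELAC2, SSBP1 and POLRMT, for RNA processing, DNA binding and transcription in mitochondria, rose by 0.58, 0.55 and 0.43 in biceps femoris (adjusted p = 0.00505, 0.0069 and 0.0337, limma).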

How the data were processed

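Total RNA was hybridised to Affymetrix porcine arrays, 1 array per sample, 18 in all. The authors processed them with RMA, per the submitters' processing notes, and deposited log2 values between 2.52 and 15.22 (version and build not given in the sources used here). Per the file headers, the deposited biceps femoris table adds, for each probe set, its log2 fold change, its p-value after adjustment and a B-statistic (a log odds score). Fold changes of the members in that table differed from those computed here by at most 5e-08. Sorted values differed by up to 0.230 between arrays of 1 muscle and by at least 0.517 between muscles, so the muscles were treated as normalized apart.

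The deposited values were used as they stand. The 124 Affymetrix controls among 24123 probe sets were not tested. A separate model per muscle was fitted with limma 3.58.1 in R 4.3.3 (lmFit, eBayes, two-sided, no covariates), and the difference between muscles in 1 fit of 18 arrays with 4 groups. That fit takes arrays of both muscles as independent. P-values were adjusted by Benjamini-Hochberg over 23999 probe sets. The test was checked on simulated data. The number of arrays limits the precision.

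Groups follow titles. Masseter numbers name animals in the descriptions (same-number correlations of deviations from -0.03 to 0.12). Biceps femoris numbers name none, so p-values there measure the spread between these arrays, part of which may be technical. The members and lists were chosen with earlier results of these data known. Named genes were the 12 of smallest p per muscle, those called against the majority, the 8 of smallest p for the difference, a set chosen for role, and up to 3 per other list. Older symbols were updated, and 6 probe sets that carry an MRPL or MRPS symbol only after this were not members. Of the members 18 had an entry in the pig RefSeq gene table, all under the same symbol. Alternatives were a replicate block, further normalization, median centring, array weights, trended priors, a filter on low values and 1 joint fit. Others were a spike-in block and leaving out each array. For biceps femoris a refit of the authors' table, whose values are the same as those used, was counted too.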

Additional observations from a re-analysis of the deposited data

Results flagged for a closer look

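Among 156 groups of 4 or 5 arrays of the named genes, an array was tested for standing apart from the others of its group (Dixon's criterion). Chance alone meets this in about 1 of 20 groups. The flags of single genes listed here are about as many as that rate gives, so no flag by itself is read as a result. For MRPS21 and MRPS18C the masseter changes without the flagged array are given above. Masseter day 5 replicate 1 stood apart below its group in the mean over all 71 genes (8.59) and over the MRPL genes (8.67), in MRPS21 (8.94), in MRPS33 (8.92) and in MRPS18C (7.98). Masseter day 5 replicate 5 was low for MRPL30 (9.44) and high for MRPS34 (8.54). Masseter day 1 replicate 4 was high for MRPL37 (10.73). In biceps femoris, day 5 replicate 1 was low for MRPL39 (8.59) and day 1 replicate 1 was low for MRPS5 (7.83).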

How the results depend on the processing

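With the animal as a replicate block, masseter had 8 member probe sets and 6 member genes lower, beside 13 and 11. The biceps femoris replicate block, whose numbers name no animals (own-number correlations from -0.21 to 0.11), kept 19 of 24 calls. With the replicate block the difference had 0 calls over all probe sets, beside 48, while array weights gave 527 and trended robust priors 24. Array weights called 7 member probe sets and 6 member genes lower in the difference. Further quantile normalization left 1 member probe set and 1 gene higher in masseter, and it moved the biceps femoris split to 12 higher and 13 lower. All probe sets moved too, to 1569 higher and 1580 lower in masseter, beside 1755 and 1563. In biceps femoris they stood at 2214 higher and 1777 lower, beside 2373 and 1744. The spike-in block gave 1306 calls in biceps femoris in all, with 2 member probe sets higher and 5 lower, and 2 genes higher and 4 lower. Leaving out 1 array at a time gave 2047 to 4628 calls in masseter, 1 to 8 member probe sets higher and 7 to 15 lower, 1 to 7 genes higher and 6 to 12 lower. For the difference it gave 9 to 266 calls in all and 0 member genes. The fewest calls in masseter came without day 1 replicate 5, followed by 2138 without day 1 replicate 4. The MRPS21 change in masseter ran from -0.25 to 0.27, and it was 0.27 without day 5 replicate 1. Members by the pig symbol column alone were 1 probe set, called in neither muscle (0%). MRPS36, MRPL21, MRPS15, MRPL30, MRPL51 and MRPS5 kept their masseter call in all 17 alternatives, and MRPL17, MRPS33, MRPL21, MRPS28 and MRPS27 in biceps femoris. MRPL46 and MRPS12 lost theirs in 11 of 17 in masseter, and MRPL9 in 12 and MRPL39 in 11 in biceps femoris. The cause was not tested.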
